A study of Mus musculus with 162 samples.

Results

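The experiment described here is the MC903 model of atopic dermatitis in the skin of mice labelled BLT1.KO at day 8. BLT1 is the high-affinity receptor for leukotriene B4, and its gene is Ltb4r1. The members were chosen by label alone (skin, genotype BLT1.KO, no_injection, Day_8), which gave 6 of the 162 libraries of the series: 3 from skin painted with MC903 and 3 from skin painted with ethanol. All mice were adult C57BL/6 males, and each day received 20 µL of ethanol, alone or holding MC903 (calcipotriol, a vitamin D analog) at 0.2 mM. The knockout allele, its source and the number of animals per library are not given in the sources used here, so the p-values measure the spread between these libraries. BLT1.KO below means libraries that carry this label. For comparison, uninjected wild-type skin of the same day had 5 MC903 and 6 ethanol libraries, in cohorts A and B that differ in the style of their labels. Wild-type mice injected with the neutrophil-depleting antibody anti-Gr1 (250 µg) had 4 and 4 libraries, PBS-injected wild-type mice 2 and 3, and TSLPR.KO mice 3 and 2.

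Leukotriene B4 is a lipid made from arachidonic acid, chiefly by leukocytes, and it draws neutrophils and other cells that carry BLT1 into tissue. 5-lipoxygenase (Alox5) with its helper Alox5ap forms leukotriene A4, the hydrolase Lta4h turns this into leukotriene B4, and Ltc4s turns it into the cysteinyl leukotrienes. In skin, neutrophils that arrive in response to chemokines can release leukotriene B4 themselves, which calls in more of them. MC903 acts on the vitamin D receptor of keratinocytes, which then make cytokines such as TSLP. The comparison of MC903 with ethanol asks which genes change in inflamed skin of mice that should lack this receptor.

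The BLT1.KO libraries held 49050822 to 67342879 counts on genes and were deeper than the other day 8 skin libraries, which held 19360413 to 39629520. The first principal component took 73.2% of the variance and separated MC903 from ethanol, and the second, with 14.1%, set ethanol replicate 3 apart from the rest. In ethanol replicate 3, 74 genes with at least 10 cpm (counts scaled to the size of the library) lay 100-fold or more above both other ethanol libraries and made up 8.38% of its counts, against 0.0115% to 0.019% in the other 5. Among them were genes of secretory glands such as Mucl2, at 11110 cpm there and 13.6 to 31.3 cpm in the other BLT1.KO libraries. In the other 5 libraries the 74 genes summed to 0.131% to 0.215% of their level in ethanol replicate 3. Their log2 values there correlated with those of replicate 3 at 0.851 to 0.953, and the source of these low levels was not tested. These 74 genes were chosen after their values were seen. The share of such tissue in the results was not tested, and list counts without this library are given where they differ. In bulk skin, fewer cells of a type and less RNA per cell cannot be told apart.

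The gene named by the label was counted in every BLT1.KO library. Ltb4r1 (ENSMUSG00000046908, GRCm38 chr14:55765962-55768494, + strand) stood at 2.34, 3.70 and 3.17 cpm in ethanol skin, from 148 to 184 counts, and at 10.3, 13.2 and 15.98 cpm in MC903 skin, from 565 to 922 counts. The groups did not overlap, with means of 3.07 ± 0.687 and 13.2 ± 2.83 cpm (SD, n = 3 each). Ltb4r1 rose with MC903 by 2.05 ± 0.26 on the log2 scale (fold change ± SE, edgeR quasi-likelihood test, adjusted p = 0.000522). In uninjected wild-type skin the lowest, median and highest values were 6.74, 8.68 and 9.88 cpm with ethanol and 32.4, 52.5 and 80.02 cpm with MC903. Both treatment groups of BLT1.KO thus lay below every uninjected wild-type library of the same treatment, but libraries of other cohorts also lay low. Anti-Gr1 ethanol skin reached down to 3.48 cpm and so overlapped BLT1.KO ethanol skin. With MC903 no other day 8 library was as low as BLT1.KO: anti-Gr1 skin reached down to 17.3 cpm, and TSLPR.KO skin had 18.9 to 22.7 cpm. A count per gene does not show which part of a gene is deleted, so these values do not check the label, and every direction below rests on it. The effect of MC903 on Ltb4r1 was 0.44 ± 0.32 lower on the log2 scale in BLT1.KO than in uninjected wild-type skin (adjusted p = 0.457, edgeR).

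The neighbouring gene Ltb4r2 (ENSMUSG00000040432, chr14:55761428-55765138) encodes BLT2, the low-affinity receptor for the same lipid. It stood at 4.77, 4.30 and 3.64 cpm in ethanol skin and at 12.1, 7.15 and 8.80 cpm in MC903 skin, and rose by 1.08 ± 0.24 (adjusted p = 0.0104). Uninjected wild-type ethanol skin had 2.19, 2.66 and 3.88 cpm as lowest, median and highest values, so BLT1.KO ethanol replicates 1 and 2 lay above that range and replicate 3 within it.

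**Figure D1:**
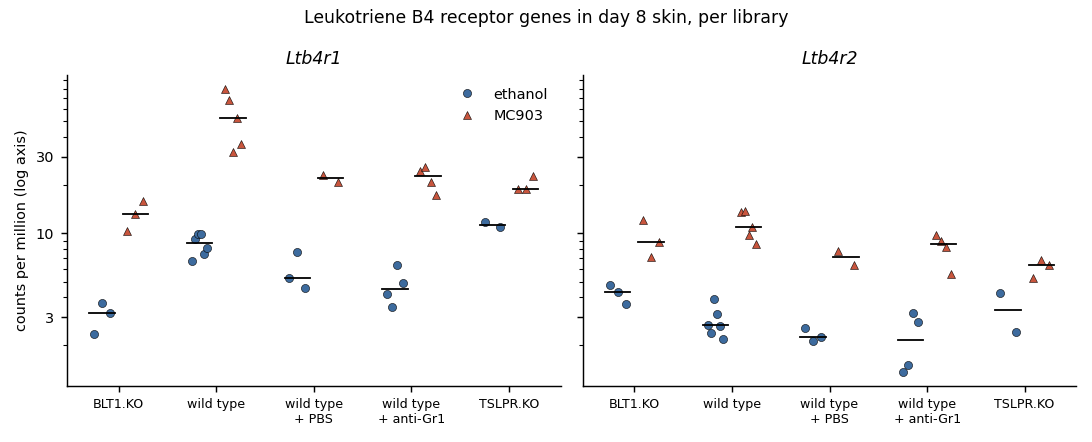
Counts scaled to library size (cpm) of Ltb4r1 and Ltb4r2 on a log axis in each day 8 skin library, with ethanol as circles, MC903 as triangles and the median of each group as a line. Ltb4r1 is detected in all 6 BLT1.KO libraries, at 2.34 to 3.70 cpm with ethanol and 10.3 to 15.98 cpm with MC903.

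Across all genes, MC903 changed a large part of the BLT1.KO skin transcriptome. Of 25771 genes tested, 7379 (28.6%) passed an adjusted p of 0.05, with 3627 (14.1%) higher and 3752 (14.6%) lower, and the median log2 fold change of all tested genes was -0.04. Of these, 4289 changed more than 2-fold. In uninjected wild-type skin 12.2% of 26175 tested genes were higher and 11.2% lower, and in anti-Gr1 skin 15.1% and 17.5% of 25287. These shares are the background against which the counts of listed genes below are read.

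Among the genes that rose with the smallest p were cytokines and acute-phase genes. Saa3, an acute-phase serum amyloid A made in tissues, went from 1.97, 1.45 and 1.498 cpm with ethanol to 450, 340 and 357 cpm with MC903 (log2 7.80 ± 0.22, adjusted p = 2.07e-06). Il24 and Il19, cytokines of the IL-20 group that act on keratinocytes, rose by 7.71 ± 0.27 and 7.20 ± 0.23. Il19 was at or below 0.623 cpm in each ethanol library and at 76.4, 76.5 and 111 cpm with MC903. Il4ra, the receptor subunit shared by IL-4 and IL-13, rose by 3.66 ± 0.13, and Hdc, which makes histamine, by 3.75 ± 0.16. The other genes of this group were Cdhr1, Ass1, Bnc1, Ptprz1 and Prg4, with log2 changes of 3.11 to 7.22.

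The genes that fell with the smallest p included epidermal and glandular products. Skint5, of a family of keratinocyte membrane proteins, fell from 87.6, 82.2 and 93.4 cpm to 0.493, 0.413 and 0.416 cpm (log2 -7.69 ± 0.16, adjusted p = 3.85e-07), the smallest p in the comparison. Krt77, a keratin of the upper epidermis and sweat ducts, fell from 3508, 3630 and 2674 cpm to 18.1, 20.5 and 13.6 cpm. Lce1m, a cornified envelope protein, fell by 6.56 ± 0.22, the beta-defensin Defb8 by 7.20 ± 0.24 and Skint6 by 6.74 ± 0.28. Rnase2b, of the eosinophil-associated ribonucleases, stood at 215, 212 and 201 cpm with ethanol and at 14.3, 16.8 and 14.5 cpm with MC903. The remaining members of this group were Oas1f, Ces1d, Serpina3b and Mrgprb11-ps.

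By size of change, the genes that rose most included several with almost no counts in ethanol skin. Fgf23, a hormone of phosphate and vitamin D balance, had no more than 3 counts in any ethanol library and reached 17.8, 13.1 and 6.90 cpm with MC903, at least 223-fold higher against that floor. Prl2c3 was at least 136-fold higher, Col6a4 at least 86.4-fold, Gsdmc3 at least 79.5-fold, Saa2 at least 77.2-fold, Fgf3 at least 47.7-fold, H1foo at least 21.3-fold and Myl7 at least 17.8-fold. Mcpt8, a protease of basophils, went from at most 0.0596 cpm to 16.8, 12.7 and 9.67 cpm. At the other end, Mrgprb3 fell from 18.3, 15.6 and 26.5 cpm to 0.0365, 0.109 and 0.0347 cpm and Mucl1 was at least 33.6-fold lower. Scgb2b26, Mup21, Scgb2b11 and Mup5 also belong to this list by size, yet they lost their call without ethanol replicate 3 (adjusted p = 0.222, 0.51, 0.706 and 0.265). Sval2 kept it there with a log2 change of -2.12 in place of -8.32, and lost it when any 1 MC903 library was left out. Klk1b26 rested on ethanol replicate 1, with 323 counts there, 6 and 2 in the other ethanol libraries and 0 with MC903. Most of these are members of multigene families, whose reads the counting could split.

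**Figure D2:**
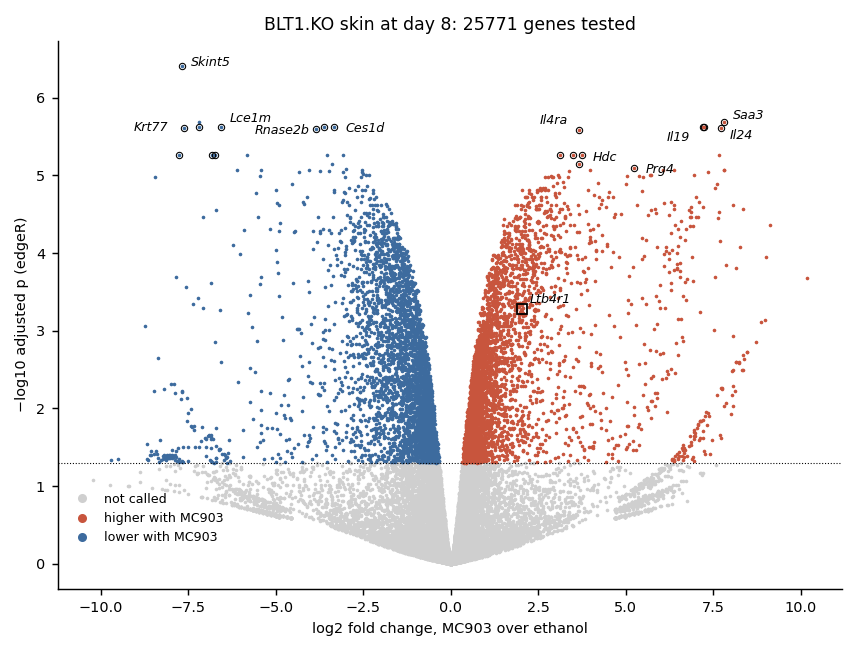
Log2 fold change of MC903 over ethanol against -log10 adjusted p for the 25771 genes tested in BLT1.KO skin, where points above the dotted line have an adjusted p under 0.05. Circles mark the genes with the smallest p in each direction, among them Skint5 at -7.69 and Saa3 at 7.80, and the square marks Ltb4r1 at 2.05.

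Of the 14 genes of leukotriene synthesis, breakdown and receptors, 6 rose and none fell, at a median log2 change of 0.54. The enzymes that commit arachidonic acid to this path were not among those that rose. Alox5 had 11.8, 9.97 and 13.5 cpm with ethanol and 10.3, 12.99 and 12.1 cpm with MC903, so the groups overlapped (log2 -0.05 ± 0.18, adjusted p = 0.875). Alox5ap had 24.8 to 28.9 cpm with ethanol and 24.7 to 38.6 cpm with MC903 (log2 0.16 ± 0.17, adjusted p = 0.547). Pla2g4a, the phospholipase that frees arachidonic acid, rose by 0.68 ± 0.15, from 20.8 to 26.6 cpm up to 34.4 to 40.6 cpm. Lta4h, which makes leukotriene B4, had 43.3, 52.3 and 61.5 cpm with ethanol and 69.4, 70.2 and 76.4 cpm with MC903. Its groups did not overlap, but the change of 0.40 ± 0.15 did not pass the test (adjusted p = 0.0747), while it did without ethanol replicate 3 (adjusted p = 0.0145) and with DESeq2's Wald test (adjusted p = 0.0396).

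On the side of breakdown, Cyp4f18, which oxidises leukotriene B4 in neutrophils, rose by 2.24 ± 0.40, from 1.31, 1.81 and 3.79 cpm to 13.97, 8.76 and 11.1 cpm. Ptgr1, which also inactivates leukotriene B4, had a log2 change of -0.34 ± 0.15 (adjusted p = 0.138). In the cysteinyl branch Mgst2 rose by 1.29 ± 0.21 and Ggt5 by 0.92 ± 0.22, the latter losing its call without MC903 replicate 1 (adjusted p = 0.0522). Ltc4s, Dpep2, Cysltr1 and Cysltr2 did not pass, with log2 changes of -0.20, 0.23, -0.20 and 1.14. In none of the 14 genes did the MC903 effect pass the test of a difference from uninjected wild-type skin by edgeR, where 6.95% of all genes did, and the smallest adjusted p among them was 0.0563, for Ptgr1. On simulated counts this test called 14 of 100 genes that differed by 1 on the log2 scale. The simulation changed 100 genes by each amount, fewer than passed in the data, so this share can be too low for these genes. A difference of that size could still be missed. Of the 18 prostaglandin genes 5 rose and 6 fell. The prostaglandin H synthase Ptgs2 went from 3.59, 11.8 and 8.52 cpm to 507, 849 and 874 cpm (log2 6.49 ± 0.50), and the prostaglandin E synthase Ptges rose by 2.77 ± 0.14. The receptor genes Ptger3 and Ptgdr fell by 1.97 and by 2.14 on the log2 scale, Hpgd, which degrades prostaglandins, fell by 1.69, and Ptgir rose by 2.002.

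Chemokines that attract neutrophils through CXCR2 rose steeply in BLT1.KO skin. Of 7 genes of CXCR2 ligands and granulocyte growth factors, 6 rose and none fell, with a median log2 change of 5.24. Cxcl5 was at 0.134, 0.0804 and 0.171 cpm with ethanol and at 38.8, 32.05 and 20.9 cpm with MC903 (log2 7.81 ± 0.36, adjusted p = 8.39e-06). Cxcl2 went from 0.283, 0.442 and 0.107 cpm to 39.3, 18.3 and 42.96 cpm (log2 6.84 ± 0.51). Cxcl3 rose by 4.84 ± 0.71 and Cxcl1 by 3.94 ± 0.81, with 5.37 to 7.87 cpm of Cxcl1 in MC903 skin. Csf3, the growth factor of neutrophils, had no more than 3 counts in any ethanol library and was at least 9.41-fold higher with MC903. Csf2, the growth factor of granulocytes and macrophages, rose by 5.24 ± 1.22, but without MC903 replicate 3 it did not pass (adjusted p = 0.0675). Ppbp had 0 to 1.03 cpm with ethanol and 0.433 to 0.673 cpm with MC903.

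Cxcl1, Cxcl2 and Cxcl3 lie in 1 cluster on chromosome 5, and their promoters are shown because they share a match to the kappaB element bound by NF-kB factors. The letters searched were GGGA, any base and TTTCC on both strands in the 250 bases before the RefSeq start (GRCm38.p6), and the match is in capitals within the last 130 of these bases.
Cxcl1 (chr5:90891115-90891244, + strand): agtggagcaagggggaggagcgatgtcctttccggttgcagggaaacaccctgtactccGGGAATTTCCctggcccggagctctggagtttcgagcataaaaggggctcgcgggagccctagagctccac
Cxcl2 (chr5:90903769-90903898, + strand): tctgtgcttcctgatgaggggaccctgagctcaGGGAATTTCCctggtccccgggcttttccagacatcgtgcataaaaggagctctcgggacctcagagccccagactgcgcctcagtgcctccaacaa
Cxcl3 (chr5:90785971-90786100, + strand): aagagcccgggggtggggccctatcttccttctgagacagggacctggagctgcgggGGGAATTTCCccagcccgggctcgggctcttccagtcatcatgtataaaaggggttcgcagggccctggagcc
The match reads GGGAATTTCC in all 3 and lies 71, 97 and 73 bases before the start, counted from its first base. It was found in 3 of the 5 listed genes with a promoter in the table (60%) and in 0.356% of all 32851 promoters. Of 56 tested genes with such a match, 14 (25%) rose in BLT1.KO skin, beside 16.6% of the 14837 tested genes with a promoter. The 3 chemokine genes are duplicated copies, so their matches share an origin and are not independent.

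Neutrophil markers moved with these chemokines. Of 18 markers tested, 13 rose and 1 fell. Their summed level was 26.8, 35.8 and 146 cpm in ethanol skin, where the high value was ethanol replicate 3, and 494, 503 and 680 cpm in MC903 skin. Uninjected wild-type MC903 skin spanned 408 to 738 cpm, a range that holds all 3 BLT1.KO values. The same sum was 1136 to 1617 cpm in MC903 skin of mice given the neutrophil-depleting anti-Gr1. It is a level of RNA and does not show how many neutrophils were present. By flow cytometry, the authors reported fewer skin neutrophils after the depleting antibody than in controls painted the same way. Trem1, a receptor of activated neutrophils and monocytes, was at least 134-fold higher with MC903. The stefins Stfa2 and Stfa3, which inhibit cysteine proteases and are abundant in neutrophils, rose by 6.94 ± 0.34 and 6.80 ± 0.45. The chemokine receptor Cxcr2 rose by 1.78 and the growth factor receptor Csf3r by 2.86. Mpo, of neutrophil granules, fell by 6.22 ± 0.53, from 7.40, 13.5 and 4.02 cpm to at most 0.121 cpm. The lineage marker Ly6g had a log2 change of 0.52 (adjusted p = 0.88) and Elane one of -2.005 (adjusted p = 0.535). By the test of the difference from uninjected wild-type skin, the effect on Padi4 was higher by 2.59 and that on Ltf lower by 8.89 on the log2 scale, and no other neutrophil marker passed. Within BLT1.KO skin Mpo was the only marker with a called fall, so Ltf had none. How far the Ltf difference rests on ethanol replicate 3, which held gland RNA, is not given here.

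Interferon-induced genes and the T cell chemokines that interferon induces rose together in BLT1.KO skin. Of 21 interferon-induced genes 19 rose and none fell, at a median log2 change of 2.23, and in uninjected wild-type skin it was likewise 19 rising. Isg15, a ubiquitin-like protein, went from 5.15, 4.63 and 3.98 cpm to 42.1, 54.8 and 47.99 cpm (log2 3.34 ± 0.17, adjusted p = 1.04e-05). Gbp2, a guanylate-binding protein of cell defence, went from 49.4, 68.9 and 42.7 cpm to 551, 494 and 636 cpm (log2 3.33 ± 0.21). Oasl2 rose by 3.07 ± 0.15, Ifit1 by 3.10 ± 0.16, Gbp5 by 2.58 ± 0.15 and Irgm1 by 2.10 ± 0.15. Ifit2 and Gbp3 did not pass (adjusted p = 0.0512 and 0.0731). All 4 genes of CXCR3 and its ligands rose: Cxcl9 from 2.08 to 6.17 cpm up to 76.4 to 103 cpm, Cxcl10 by 4.07 ± 0.31, Cxcl11 by 2.85 ± 0.48 and the receptor Cxcr3 by 1.17 ± 0.26.

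The summed level of the 21 genes was 304, 329 and 252 cpm with ethanol and 1561, 1713 and 1706 cpm with MC903. In uninjected wild-type skin MC903 libraries ran from 298 to 2735 cpm with a median of 574 cpm, so the BLT1.KO libraries were close to each other while the wild-type ones were not, within cohort A (318 to 2735 cpm) as well as between cohorts. For none of the 21 genes did the effect pass the test of a difference from uninjected wild-type skin by edgeR. For Isg15 that difference was 0.32 ± 0.85, an error that leaves room for a difference of more than 1 in either direction on the log2 scale.

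The promoters of 4 interferon-induced genes are shown with their matches to the interferon-stimulated response element in capitals (GAAA, any 2 bases and GAAA, searched on both strands in 250 bases before the start, where matches may overlap).
Isg15 (chr4:156200819-156200948, - strand): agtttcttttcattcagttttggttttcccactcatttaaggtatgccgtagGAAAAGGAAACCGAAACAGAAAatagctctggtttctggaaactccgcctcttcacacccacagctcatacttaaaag
Ifit1 (chr19:34640759-34640888, + strand): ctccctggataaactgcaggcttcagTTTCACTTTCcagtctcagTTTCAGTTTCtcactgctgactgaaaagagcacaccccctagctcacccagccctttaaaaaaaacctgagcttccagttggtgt
Gbp2 (chr3:142620533-142620662, + strand): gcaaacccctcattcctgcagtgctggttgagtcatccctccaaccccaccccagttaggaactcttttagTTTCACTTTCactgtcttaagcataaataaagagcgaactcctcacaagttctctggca
Irgm1 (chr11:48871421-48871550, - strand): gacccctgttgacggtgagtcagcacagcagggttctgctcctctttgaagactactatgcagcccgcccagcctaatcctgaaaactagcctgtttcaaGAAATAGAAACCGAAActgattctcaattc
Isg15 holds 3 overlapping matches, Ifit1 and Irgm1 hold 2 each and Gbp2 holds 1. A match was found in 11 of the 15 listed genes with a promoter in the table (73.3%) and in 978 of all 32851 promoters (2.98%). Of the 11 genes with a match 10 rose, with log2 changes of 0.95 to 3.34 over the 11, and of the 4 without a match 3 rose. Over the whole table, 98 of 416 tested genes with a match (23.6%) rose and 13% fell, beside 16.6% and 18.6% of the 14837 tested genes with a promoter. A match is a description of letters and not evidence of binding.

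Epithelial alarmins and type 2 genes also responded. The alarmin gene Tslp rose by 3.87 ± 0.41, from 0.825 to 1.31 cpm up to 14.6, 25.7 and 9.22 cpm. Il33 had 21.6, 28.6 and 31.4 cpm with ethanol and 263, 483 and 580 cpm with MC903 (log2 3.97 ± 0.32). Il25 had 8 to 34 counts in each ethanol library and 0 in each MC903 library, and fell at least 7.24-fold. Of 13 type 2 cytokine and receptor genes tested, 8 rose and 2 fell. Il4 went from 0.745, 1.33 and 1.09 cpm to 11.7, 8.30 and 20.1 cpm (log2 3.61 ± 0.39). Il13 rose by 3.99 ± 0.88 to at most 1.16 cpm, and its call was lost without MC903 replicate 3 (adjusted p = 0.068). Il31, the itch cytokine, had 0 counts in all 6 libraries, Il9 had too few counts for the test, and Il5 had 13 counts in 1 MC903 library and at most 1 elsewhere.

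Among the receptors, the IL-31 receptor gene Il31ra and the transcription factor gene Gata3 fell. Il31ra had 64.8, 66.7 and 77.96 cpm with ethanol and 31.7, 26.7 and 25.9 cpm with MC903 (log2 -1.37 ± 0.13), while its partner Osmr rose by 1.47 ± 0.13. The gene of the cytokine oncostatin M, Osm, rose by 5.33 ± 0.34. Gata3, which is expressed in type 2 lymphocytes and also in keratinocytes, fell by 1.47 ± 0.15. Il13ra1, Il1rl1 (the IL-33 receptor) and Crlf2 (the TSLP receptor) rose by 1.36, 1.53 and 1.29. Il13ra2 had a change of 0.69 ± 0.23 (adjusted p = 0.058) and passed without MC903 replicate 3 (adjusted p = 0.0251). Il4ra alone in this list had a called difference from uninjected wild-type skin. It was 24.5, 26.4 and 23.6 cpm with ethanol and 335, 339 and 308 cpm with MC903 in BLT1.KO, beside 28.9 to 58.6 cpm and 149 to 353 cpm in wild-type skin, and its effect was 1.34 ± 0.29 larger (adjusted p = 0.01).

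Markers of cells that respond to type 2 signals split by cell type. Of 12 mast cell and basophil markers 8 rose and 1 fell: the basophil genes Mcpt8 and Fcer1a rose by 8.35 and 6.07, and the mast cell receptor Mrgprb2 fell by 2.85. Of 7 eosinophil markers tested 1 rose and 3 fell, and the summed level went from 33.8, 39.9 and 38.7 cpm to 9.37, 10.6 and 8.20 cpm. Those that fell were the ribonuclease genes Ear1, Ear2 and Ear6, which macrophages can also express, and these 3 were lower in effect than in uninjected wild-type skin. Ear6 fell by 4.49 ± 0.35 in BLT1.KO, beside -0.03 in wild-type skin (adjusted p of the difference = 0.00049). The defining marker Epx was too low to test, and Prg2, which rose, was at 0 with ethanol and at 8 to 15 counts with MC903 and lost its call without ethanol replicate 3. Reads of the similar Ear genes and Rnase2b could be shared among them. Of 15 T cell markers 8 rose and 2 fell, with Icos up by 2.30, Ctla4 by 2.13 and Foxp3 by 2.08, and the receptor subunits Cd3e and Cd3g down by 1.41 and 1.75. Of 8 natural killer and innate lymphoid markers 3 rose, the granzymes Gzma by 4.15 and Gzmb by 5.58 and the growth factor Areg by 4.85, which keratinocytes also make, and the perforin gene Prf1 fell by 3.31. None of 6 B cell and plasma cell markers passed. Without ethanol replicate 3, 10 mast cell and basophil markers and 10 T cell markers rose.

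Other cytokine groups gave mixed counts. Of 12 IL-1 and IL-36 family genes 6 rose and 2 fell: Il1b went from 0.596, 1.21 and 1.78 cpm to 81.1, 35.4 and 57.8 cpm, Il1f8 (IL-36 beta) rose by 3.06 and Il1f9 (IL-36 gamma) by 1.65, while the decoy receptor Il1r2 fell by 1.17. Without ethanol replicate 3, 7 rose and 1 fell. Of 12 genes tested in the IL-17, IL-22 and IL-20 axis 4 rose and 2 fell. Beside Il19 and Il24, the receptors Il17ra and Il17rc rose by 0.97 and 0.87, and the receptor gene Il20rb fell by 1.46. Il17a and Il22 had too few counts to test. Of 13 genes of monocyte-attracting chemokines and their receptors 9 rose and 1 fell, with Ccl3 up by 6.87, Ccl2 by 4.21 and the receptor Ccr1 by 3.68, and without ethanol replicate 3 it was 10 that rose. Of 9 genes of eosinophil and Th2 chemokines and their receptors tested 1 rose, Ccl8 by 1.72, and 3 fell. Those that fell were the chemokine receptor Ccr4, found on T cells, by 2.67, Ccl22 by 0.96 and the eosinophil attractant Ccl11 by 0.56. The call of Ccl11 was lost without ethanol replicate 3 (adjusted p = 0.0843). Of 13 macrophage and monocyte markers 8 rose and 1 fell. Of the 7 markers of alternative activation 5 rose, with Arg1 up by 3.45 and Chil3 by 5.96, and 2 fell, or 1 without ethanol replicate 3, with Retnla down by 4.39. Of 14 antigen presentation and dendritic cell markers 1 rose and 7 fell, among the latter the Langerhans cell lectin Cd207 by 3.78 and the invariant chain Cd74 by 0.91. Without ethanol replicate 3, 2 of these 14 rose and 5 fell.

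**Figure D3:**
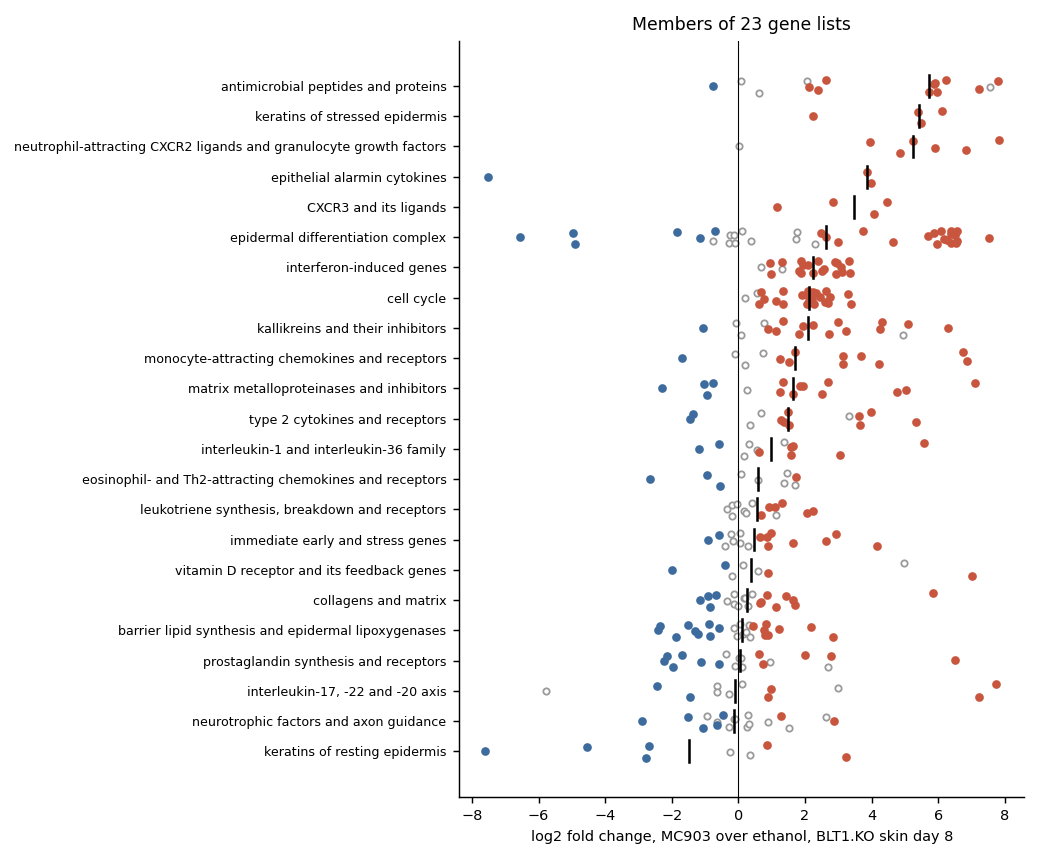
Log2 fold change of MC903 over ethanol in BLT1.KO skin for the tested members of 23 gene lists. Filled points passed an adjusted p of 0.05 (red higher, blue lower), open points did not, and vertical bars are list medians, which run from -1.47 for keratins of resting epidermis to 5.71 for antimicrobial peptides.

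Keratins of stressed epidermis rose and several products of resting epidermis fell. All 4 keratins of stressed epidermis rose. Krt6a went from 174, 287 and 215 cpm to 7929, 9900 and 11320 cpm (log2 5.37 ± 0.27), and Krt16 and Krt6b rose by 5.48 and 6.10, though reads of the near-identical Krt6a and Krt6b could be shared. Of 8 keratins of resting epidermis 2 rose and 4 fell. Krt10, of suprabasal cells, fell from 4179, 4522 and 4005 cpm to 632, 465 and 838 cpm, and Krt15 fell by 2.68, while basal Krt14 rose by 3.24 ± 0.20 and Krt5 by 0.85.

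Of 35 genes tested in the epidermal differentiation complex, the cluster of cornified envelope genes, 19 rose and 6 fell. The late envelope genes Lce3a to Lce3f rose by 6.25 to 6.56, and 7 listed Sprr1 and Sprr2 genes, the small proline-rich proteins, by 2.47 (Sprr1a) to 7.53 (Sprr2e), while Sprr4 fell by 1.15. Rptn went from 104, 127.2 and 86.8 cpm to 1943, 3442 and 2798 cpm. Loricrin (Lor) fell by 4.97, Flg2 by 4.92 and involucrin (Ivl) by 1.84, and filaggrin (Flg) had 1.74 (adjusted p = 0.0719). Members of the Lce and Sprr families are similar in sequence, so counts could be split among them. Of 18 kallikreins and inhibitors 13 rose and 1 fell, with Klk13 up by 6.28, Klk9 by 4.32 and Klk6 by 4.25. Without ethanol replicate 3, 14 rose, among them the inhibitor gene Wfdc12, whose change was -0.084 with that library and 5.75 without it. These proteases shed cells from the epidermal surface. Of 15 antimicrobial genes 10 rose and 1 fell, at a median of 5.71, with Slpi up by 6.23, Defb14 by 5.91, S100a8 by 5.96 and S100a9 by 5.87. Lcn2 rose by 2.12, less than in uninjected wild-type skin, where its change was 3.64 (adjusted p of the difference = 0.0196). Of 24 genes of barrier lipid synthesis and epidermal lipoxygenases 8 rose, or 6 without ethanol replicate 3, and 9 fell. Ugcg, which makes glucosylceramide, rose by 2.17, and the ceramidase Acer1 and the hydroxylase Fa2h fell by 1.52 and 1.32.

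The vitamin D response itself was present. Cyp24a1, which breaks down vitamin D and is induced by its receptor, went from 9.59, 31.4 and 18.4 cpm to 2009, 2913 and 3008 cpm (log2 7.01 ± 0.49), beside 7.24 in wild-type skin. The receptor gene Vdr rose by 0.88 ± 0.13, from 91.9, 107 and 103 cpm to 206, 172 and 201 cpm. In uninjected wild-type ethanol skin Vdr lay at 234 to 363 cpm, and the effect there was -0.42 (adjusted p of the difference = 0.00813). Cyp27a1, an enzyme of vitamin D and cholesterol oxidation, fell by 1.98.

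In the dermis, 10 of 15 matrix metalloproteinases and inhibitors rose and 4 fell, or 3 without ethanol replicate 3, with Mmp13 up by 7.10, Timp1 by 5.03 and Mmp9 by 2.70. Of 20 collagen and matrix genes 8 rose and 4 fell, or 3 without that library. Tnc, the tenascin of wounds, went from 17.9, 24.4 and 43.4 cpm to 2247, 1527 and 1388 cpm (log2 5.85 ± 0.40), beside 2.16 in uninjected wild-type skin (adjusted p of the difference = 0.00023). Postn and Col12a1 rose by 1.65 and 1.70, and Col1a1 and Col1a2 fell by 0.91 and 1.14, with an adjusted p of 0.0865 for Col1a1 without ethanol replicate 3. Of 18 neurotrophic and axon guidance genes 2 rose and 5 fell, with Sema3a up by 1.26 and Sema3d down by 2.88. Of 16 immediate early genes 8 rose and 2 fell, with Fos up by 2.92, Junb by 2.62 and Fosl1 by 4.14, and Jund down by 0.91. Of 10 sensory neuron markers tested, whose summed level was 3.72 to 7.46 cpm with ethanol and 4.30 to 6.01 cpm with MC903, 1 rose, the neuropeptide gene Calca by 2.50.

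Markers of muscle and fat under the skin were lower in MC903 skin. All 11 skeletal muscle markers fell, with a summed level of 43490, 34490 and 24760 cpm with ethanol and 4389, 11230 and 6487 cpm with MC903. All 10 adipocyte markers fell, from 2225 to 2801 cpm in sum down to 619 to 706 cpm. Of 8 sebaceous markers 6 fell and 1 rose, with the desaturase Scd1 down by 1.82 and Fabp5, a lipid carrier that keratinocytes also make, up by 2.88, so that their summed level was higher with MC903. Of 6 Schwann cell markers 5 fell, and of 6 fibroblast markers 4 fell and 1 rose. Of 6 endothelial markers 4 rose, and of 5 erythrocyte markers 2 fell. Of 7 keratinocyte markers 3 rose and 1 fell. Without ethanol replicate 3, 5 sebaceous, 3 fibroblast and 1 erythrocyte markers fell, 4 keratinocyte markers rose, and 2 endothelial markers rose and 1 fell. Of 4 salivary gland markers tested 3 fell, but their summed ethanol level of 78.7, 65.4 and 11170 cpm was set by ethanol replicate 3, without which 2 fell and the median change went from -4.74 to -1.44. The muscle and fat sums did not overlap between treatments, and their part in the results for other genes was not tested.

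Cell cycle genes rose more in BLT1.KO than in uninjected wild-type skin. In the test of the difference between both MC903 effects, 1924 of 27679 genes (6.95%) passed, with 1203 (4.35%) higher and 721 (2.6%) lower in BLT1.KO. Of 24 cell cycle genes 22 rose in BLT1.KO and 9 in wild-type skin, and for 20 of the 24 the effect was higher in BLT1.KO. Against PBS-injected wild-type skin only 8 genes of any kind passed, 1 of them higher in BLT1.KO. At most 1 of these 20 calls thus held there. Mki67, a protein of dividing cells, went from 48.7, 50.3 and 33.1 cpm to 251, 218 and 225 cpm (log2 2.33 ± 0.18). In wild-type skin its lowest, median and highest values were 174, 272 and 356 cpm with ethanol and 158, 207 and 312 cpm with MC903. The MC903 levels thus overlapped between genotypes, and the ethanol levels did not, with BLT1.KO lower. The summed level of the 24 genes was 396 to 476 cpm in BLT1.KO and 991 to 1475 cpm in uninjected wild-type ethanol skin. Wild-type ethanol skin of other cohorts also lay low, with 418 to 823 cpm in the 4 anti-Gr1 libraries and 445 cpm in 1 of the 3 PBS libraries. Against anti-Gr1 skin, where 15 of the 24 genes rose, the effect was higher in BLT1.KO for 4. BLT1.KO ethanol skin also held more of other tissue than uninjected wild-type ethanol skin, with muscle marker sums of 24760 to 43490 cpm against 4124 to 17790 cpm and adipocyte marker sums of 2225 to 2801 cpm against 1050 to 1589 cpm, and their part in the difference was not tested. Ccnb1, the mitotic cyclin, had the same pattern: 8.95 to 10.9 cpm in BLT1.KO ethanol skin against 40.5 to 65.2 cpm in wild-type ethanol skin, and 56.5 to 74.2 cpm against 61.7 to 73.7 cpm with MC903. Its effect differed by 2.44 ± 0.20 (adjusted p = 4.81e-06). Bub1, of the spindle checkpoint, differed by 3.37 ± 0.28.

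Hair follicle and pigment genes moved beside them. The summed level of 18 hair follicle markers was 17.9, 553 and 104 cpm in BLT1.KO ethanol skin and 1176, 375 and 1286 cpm in BLT1.KO MC903 skin. In uninjected wild-type skin the lowest, median and highest sums were 14610, 27960 and 50490 cpm with ethanol and 921, 7198 and 17380 cpm with MC903. All BLT1.KO ethanol libraries thus lay below every uninjected wild-type ethanol library, while anti-Gr1 ethanol skin ran from 272.8 to 9801 cpm and overlapped them. In BLT1.KO 1 of the 18 markers rose, Msx2 by 1.05 (adjusted p = 0.0511 without ethanol replicate 3), and none fell, while in wild-type skin 15 fell, and for 7 the effect was higher in BLT1.KO. Of 6 melanocyte markers 4 rose in BLT1.KO and all 6 fell in wild-type skin. Tyrp1, of pigment synthesis, had 3.31, 6.23 and 7.02 cpm with ethanol and 71.05, 43.5 and 55.9 cpm with MC903, beside medians of 86.1 cpm and 62.9 cpm in wild-type skin, and differed in effect by 3.999 ± 0.37 (adjusted p = 1.34e-05). Hair follicles of growing hair hold dividing and pigment cells, and the part of hair growth in the difference was not tested. Genotype, cohort and depth cannot be told apart, since all BLT1.KO libraries form 1 set.

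**Figure D4:**
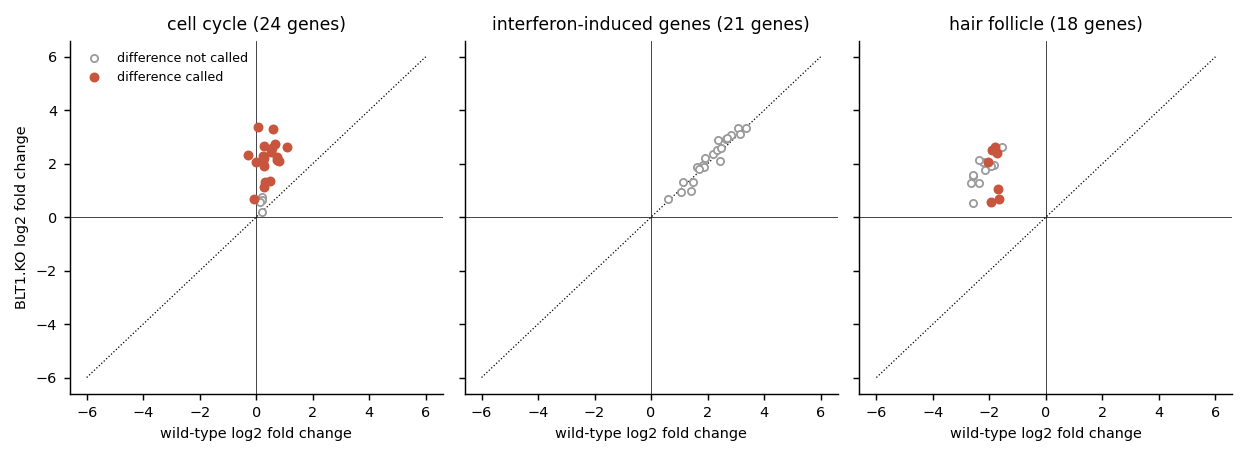
Log2 fold change of MC903 over ethanol in uninjected wild-type skin (horizontal) and BLT1.KO skin (vertical) for cell cycle genes, interferon-induced genes and hair follicle markers, where filled points passed the test of the difference and the dotted line marks equal effects. In cell cycle genes 20 of 24 are filled and lie above the line, the 21 interferon-induced genes lie along it with none filled, and 7 of 18 hair follicle markers are filled.

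The genes with the smallest p for this difference were mostly low in BLT1.KO ethanol skin. Has3, which makes hyaluronan, had 4.63, 3.62 and 2.48 cpm with ethanol and 118.3, 172 and 205 cpm with MC903, beside 22.5 to 33.6 cpm and 64.9 to 100.5 cpm in wild-type skin, so that its effect was 4.03 ± 0.30 higher (adjusted p = 3.44e-06). Gjb2, the connexin of hyperproliferative epidermis, went from 7.57, 17.1 and 13.6 cpm to 547, 722 and 994 cpm, and its effect was 4.86 ± 0.38 higher. Bnc1, a transcription factor of basal keratinocytes, had 4.63 to 5.91 cpm with ethanol and 59.4 to 64.01 cpm with MC903, beside 30.7 to 58.8 cpm in wild-type ethanol skin. Etv4, Pi15, Kcnh1 and Bub1b also passed with higher effects. On the lower side, Rnase2b had a wild-type change of -0.24 and its effect in BLT1.KO was 3.54 ± 0.45 lower, with MC903 levels of 14.3 to 16.8 cpm in BLT1.KO and 42.8 to 115.3 cpm in wild-type skin. Rnase2b also varied between wild-type cohorts, with 16.8 to 22.1 cpm in PBS ethanol skin. Chit1, Oas1f, Cldn23, Rgcc, Cfap57, Fmo5, Bcl6 and 2310050C09Rik also passed with lower effects, by 1.18 to 2.62 on the log2 scale. The count of genes depended on which wild-type libraries were used: it was 1830 with cohort A only, 1010 with cohort B only, and 8 against PBS-injected wild-type skin, of which 1 was higher and 6 were among the 1924. PBS ethanol skin ranged widely, for Mki67 from 57.5 to 301 cpm.

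**Figure D5:**
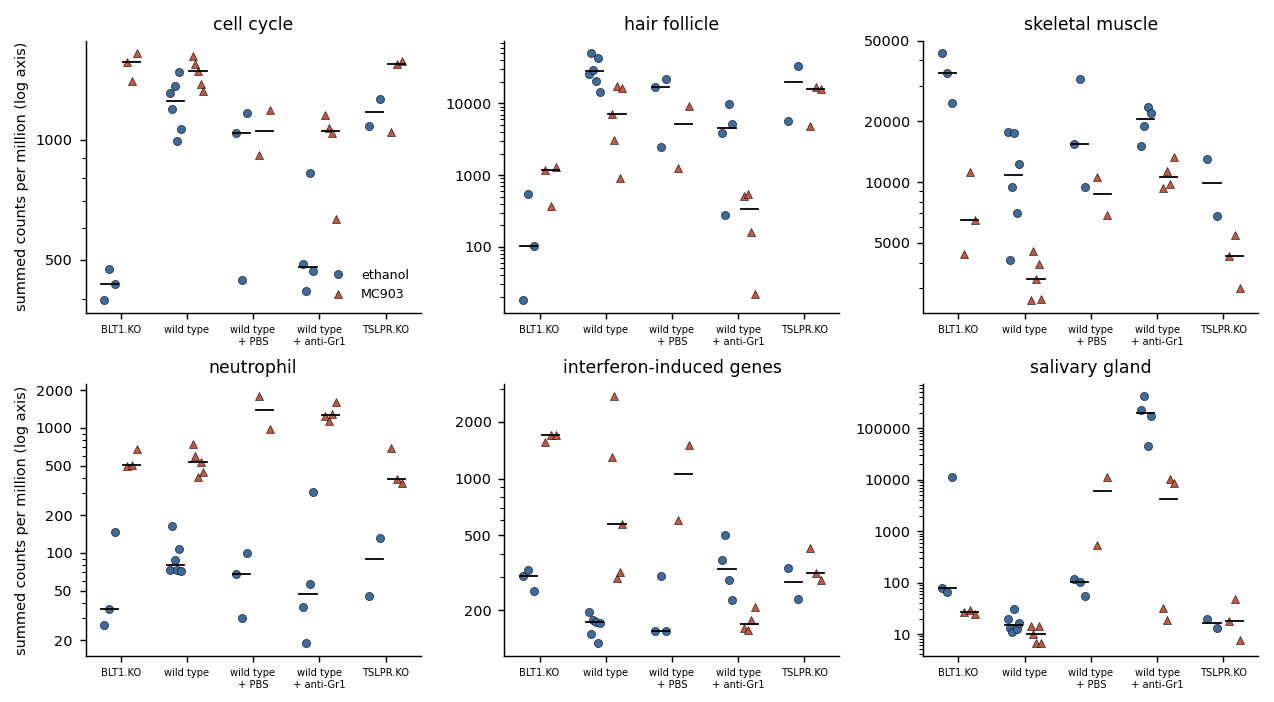
Summed cpm, on log axes, of 2 gene lists and 4 marker lists in each day 8 skin library, with ethanol as circles, MC903 as triangles and group medians as lines. BLT1.KO ethanol libraries lie below uninjected wild-type ones in cell cycle genes (396 to 476 cpm) and hair follicle markers (17.9 to 553 cpm) and overlap anti-Gr1 ones in both, and anti-Gr1 ethanol libraries are high in salivary gland markers (44640 to 419400 cpm).

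Against anti-Gr1 wild-type skin, the MC903 effect differed for 1753 of 27472 genes (6.38%), with 770 (2.8%) higher and 983 (3.58%) lower in BLT1.KO. With no scaling beyond library size it was 483 higher and 1104 lower, and the median over all genes moved from -0.07 to -0.32. All 21 interferon-induced genes were higher in effect in BLT1.KO: 19 rose there, and 16 fell and none rose in anti-Gr1 skin. Isg15 had 3.31 to 8.71 cpm in anti-Gr1 ethanol skin and 1.94 to 2.88 cpm in anti-Gr1 MC903 skin, a difference of effects of 4.70 (adjusted p = 3.88e-05). Parp12, Oasl2, Igtp, Oas1a, Iigp1, Dusp2 and Ifih1, most of them interferon-induced, were also among the 10 with the smallest p on the higher side, with differences of 2.12 (Parp12) to 4.19 (Oasl2). The 10 on the lower side were Galnt15, Spock2, Scara5, Txnip, Serpinb6c, Gm9978, Stc2, Ddit4, Fbxo32 and Cd59b, led in size by the muscle ubiquitin ligase gene Fbxo32 at -4.04. Cxcl9, Cxcl10 and Cxcl11 differed by 5.53, 4.88 and 4.97, and Il33 by 2.05 (adjusted p = 0.00606), and these had the same direction. Il31ra differed by -1.34 (adjusted p = 0.00622). Anti-Gr1 ethanol skin held other tissue: salivary gland markers summed to 44640 to 419400 cpm there and 18.6 to 10540 cpm with MC903, and B cell markers to 11.9 to 459 cpm and 2.66 to 4.11 cpm. In BLT1.KO skin B cell markers summed to at most 5.97 cpm. Neutrophil markers were not low in anti-Gr1 MC903 skin: 15 of 18 tested rose there, and their sum was 1136 to 1617 cpm, above the 494 to 680 cpm of BLT1.KO and the 408 to 738 cpm of uninjected wild-type MC903 skin. PBS-injected MC903 skin had 974 to 1786 cpm, a range that holds the anti-Gr1 values. The sum is a level of RNA and does not count neutrophils. The authors counted skin neutrophils by flow cytometry and reported fewer after the depleting antibody than in controls painted the same way. The sum is therefore not read as a failed depletion. The part of the salivary gland and B cell RNA in the differences was not tested. The interferon sum of 158 to 209 cpm in anti-Gr1 MC903 skin lay below every BLT1.KO library of either treatment. It overlapped uninjected wild-type ethanol skin, at 134 to 195 cpm. Anti-Gr1 ethanol skin, at 228 to 502 cpm, lay above every uninjected wild-type ethanol library. BLT1.KO ethanol skin, at 252 to 329 cpm, and TSLPR.KO ethanol skin, at 229 to 335 cpm, also did. PBS ethanol skin ran from 155 to 304 cpm. Among anti-Gr1 ethanol libraries, replicates 1 and 2 had the highest interferon sums (370.5 and 501.5 cpm) and B cell sums (459 and 230 cpm). The CXCR2 ligand list had no called difference by edgeR from anti-Gr1 or from uninjected wild-type skin, nor had any of the 14 leukotriene genes. On simulated counts these tests called 11 and 14 of 100 genes that differed by 1 on the log2 scale. Fewer genes changed in the simulations than passed in the data, so these shares can be too low. A missing call does not show equal effects.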

How the data were processed

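RNA of mouse skin was sequenced in bulk. The authors mapped the reads and deposited raw counts per gene for each library, and the submitters' processing notes name TopHat, TopHat2, Bowtie2, HTSeq and the genome build mm10. Whether counting used strand is not given in the sources used here. The 5 tally lines per file were left out (no feature 10.4% to 12.6% and ambiguous 1.93% to 2.13% of the BLT1.KO libraries).

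Symbols came from GENCODE M21, which matched 45229 of 46078 gene IDs, and promoter sequences from RefSeq (GRCm38.p6). Genes with at least 10 counts over the fitted libraries were tested with edgeR 4.0.16 (quasi-likelihood, TMM scaling, R 4.3.3), and Benjamini-Hochberg adjusted p-values under 0.05 were called. Differences between effects were interaction terms, with wild-type cohort as a term. Every log2 change is of MC903 over ethanol with its SE, and cpm were scaled by TMM over the 35 day 8 skin libraries. Bounds used a floor of 3 counts per library and cover counting error only. Alternatives were DESeq2 1.42.0, other scaling and filters, a replicate block and leaving out libraries.

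Named genes were Ltb4r1 and Ltb4r2, in each direction the 10 or fewer genes of smallest p and of largest change (called, without overlap between treatments, at least 1 cpm in the higher group and not a gene model), every member of the leukotriene, CXCR2, CXCR3, alarmin and type 2 lists, up to 6 members with the smallest p of every other list, and up to 10 per direction in each difference. Other genes were named after their values were seen, and 4 genes within this rule are not reported here. The gene lists and their genes were chosen with earlier results of these data known, while the 6 libraries were chosen by label alone. On simulated counts for the BLT1.KO comparison over 25771 genes, 29 of 100 genes changed by 1 and 78 of 100 changed by 2 on the log2 scale were called. For the difference from uninjected wild-type skin it was 14 and 73 of 100, and for that from anti-Gr1 skin 11 and 72 of 100. Each simulation changed 100 genes by each amount, fewer than passed in the data, so these shares can be too low for the data.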

Additional observations from a re-analysis of the deposited data

Results flagged for a closer look

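The MC903 effect differed between BLT1.KO and uninjected wild-type skin, by the interaction test in edgeR, for 1924 genes. Among the named ones it was higher in BLT1.KO, on the log2 scale, for the hyaluronan synthase Has3 (4.03), the connexin Gjb2 (4.86), Kcnh1 (3.92), the transcription factors Bnc1 (3.56) and Etv4 (2.76), Pi15 (3.08) and the mitotic genes Bub1 (3.37), Bub1b (2.70) and Ccnb1 (2.44). The receptor subunit Il4ra differed by 1.34. It was lower for the ribonucleases Ear6 (-4.40) and Rnase2b (-3.54), Cfap57 (-2.62), the claudin Cldn23 (-2.40), Fmo5 (-2.17), Oas1f (-1.81), 2310050C09Rik (-1.56), Rgcc (-1.42), the chitinase Chit1 (-1.37) and Bcl6 (-1.18). Genotype and cohort cannot be told apart in these values.

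Against anti-Gr1 wild-type skin the effect differed for 1753 genes. It was higher in BLT1.KO for the chemokines Cxcl9 (5.53), Cxcl11 (4.97) and Cxcl10 (4.88) and for Isg15 (4.70), Oasl2 (4.19), Gbp2 (3.90), Igtp (3.89), Iigp1 (3.72), Oas1a (3.61), Dusp2 (3.38), Ifih1 (2.14), Parp12 (2.12) and the alarmin Il33 (2.05). It was lower for Fbxo32 (-4.04), Ddit4 (-2.98), Gm9978 (-2.94), Stc2 (-2.78), Galnt15 (-2.76), Spock2 (-2.66), Txnip (-2.66), Cd59b (-2.60), Serpinb6c (-2.48), Scara5 (-1.72) and the receptor Il31ra (-1.34). Anti-Gr1 ethanol skin also held salivary gland and B cell RNA, and its part was not tested.

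Of 28 groups examined for a single distant library, 2 held one by Dixon's test, which chance gives in about 1 of 20 groups. The summed neutrophil markers reached 307.3 cpm in 1 anti-Gr1 ethanol library, where the group's median was 46.7 cpm. The summed melanocyte markers fell to 159.3 cpm in 1 uninjected wild-type MC903 library, where the median was 261 cpm.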

How the results depend on the processing

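The count of 7379 genes in the BLT1.KO comparison was 4289 when a change above 2-fold was also asked for, 7204 with the replicate block, and 5606 to 7294 when 1 library was left out. The difference from uninjected wild-type skin (1924 genes) gave 3156 with DESeq2, 1010 with cohort B only, 1100 with the replicate block and cohort B, 8 against PBS-injected skin, and 1227 to 1554 without 1 BLT1.KO library, the fewest without MC903 replicate 3. The difference from anti-Gr1 skin (1753 genes) gave 2920 with DESeq2, 1182 with the replicate block, and 1104 to 1619 without 1 BLT1.KO library: 1147 without MC903 replicate 1 and 1104 without MC903 replicate 3. With DESeq2's size factors its split was 883 higher and 778 lower, against 770 and 983. The cause of these shifts was not tested. Replicate numbers did not pair the libraries: deviations of same-numbered libraries correlated at -0.0514, -0.0804 and 0.0999 across 17125 genes. Scaling by library size alone was chosen after seeing the data.

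For 77 named genes under 986 combinations of gene and setting, 941 kept the direction and the side of the threshold, 28 lost the call, 8 gained it and 9 changed sign. The sign changed only for genes that had not passed: Alox5 was 0.0048 when fitted together with wild-type skin and -0.12 to 0.094 without 1 library, Ltc4s -0.79 to 0.19, Cysltr1 -0.33 to 0.010 and Ppbp -0.53 to 0.97. Il5 had at most 13 counts per library and Il9 too few for the test, so changes in them were not detectable.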
